A study of Homo sapiens with 18 samples.

Results

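Keratin genes encode the intermediate filament proteins of epithelial cells, and 10 of them, KRT5, KRT6A, KRT6B, KRT7, KRT8, KRT16, KRT17, KRT18, KRT19 and KRT80, are described here across drug treatments of a lung cancer line. The members were chosen by name, as keratins of simple and of stratified epithelia, out of 30727 gene identifiers in the table. That table also names 45 other keratin genes, pseudogenes and antisense genes not counted, which brings the family to 55.

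RNA came from PC9, an established human lung adenocarcinoma line with an activating mutation of the kinase EGFR, in 18 polyA-selected libraries that form 6 groups of 3. DTP_TSA cells were drug-tolerant persister cells that were then given trichostatin A (TSA), a histone deacetylase inhibitor, at 50 nM for 5 hours. DTP cells had survived erlotinib, an EGFR inhibitor, at 1 µM over 8 days, with drug renewed every 3 days. Erlotinib_24h cells received 1 µM erlotinib for 24 hours, and carboplatin_72h cells 50 µM of the DNA-crosslinking drug carboplatin for 72 hours, renewed daily. Parental_TSA cells received 50 nM TSA for 5 hours, and parental_DMSO cells were PC9 cells with the solvent DMSO, the baseline of the study's question of how RNA levels differ between untreated, drug-treated and drug-tolerant populations. All groups come from a single cell line, and the DTP labels also speak of cells sorted by ALDH activity, which no title names. Whether replicates came from separate cultures is not stated, so p-values reflect only the spread between these libraries, which may be technical.

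Keratin filaments are built from pairs of an acidic type I protein (KRT16, KRT17, KRT18 and KRT19 here) and a basic type II protein (KRT5, KRT6A, KRT6B, KRT7, KRT8 and KRT80 here). Simple epithelia such as the lung's glandular and alveolar lining are known for KRT8 and KRT18 with KRT7 and KRT19, basal cells of stratified epithelia for KRT5, and injured or rapidly growing epidermis for KRT6A, KRT6B, KRT16 and KRT17. KRT80 is known as a type II keratin of many epithelia, near cell junctions in differentiated cells. In human the type II genes and the type I gene KRT18 lie together on chromosome 12, where KRT80 neighbours KRT7, KRT6A neighbours KRT5 and KRT8 neighbours KRT18, while KRT16, KRT17 and KRT19 lie on chromosome 17, where KRT16 neighbours KRT17, in the order of coding genes of RefSeq.

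Keratin genes have near copies, and reads that fit several copies are shared out by estimation. The coding sequences of KRT6A and KRT6B, both 1692 bases long in the GENCODE v29 transcripts (GRCh38), differ at 42 bases, which is 97.5% identity, and the identity to KRT6C is 97.9% for KRT6A and 98.5% for KRT6B. The stretch from coding base 656 to 745, chosen as the 90 bases where KRT6A and KRT6B differ most, shows letters by which reads can be told apart, with capitals at the positions where the 3 genes on chromosome 12 are not all alike.
KRT6A: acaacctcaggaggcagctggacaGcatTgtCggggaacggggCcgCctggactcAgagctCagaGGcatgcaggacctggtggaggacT
KRT6B: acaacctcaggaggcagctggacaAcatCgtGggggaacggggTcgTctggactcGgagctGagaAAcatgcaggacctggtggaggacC
KRT6C: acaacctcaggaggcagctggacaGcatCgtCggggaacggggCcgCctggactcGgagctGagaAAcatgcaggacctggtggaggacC
Within these 90 bases KRT6B differs from KRT6A at 10 positions and KRT6C differs from KRT6A at 6. Of all 30-base stretches of a transcript, 61.7% of KRT18, 58.9% of KRT6B, 53.6% of KRT6A, 52.5% of KRT8, 40.6% of KRT16 and 36.1% of KRT17 also occur in another gene, those sharing most with KRT8 and KRT18 being pseudogenes. The share was 12.8% for KRT19, 7.55% for KRT5, 5.39% for KRT7 and 1.59% for KRT80. Levels of members with a high share are therefore uncertain, and by how much was not measured.

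Gene reads ran from 32139343 to 128293531 per library. DTP_TSA a stood apart, since the ERCC spike-in RNA, added by cell number, took 50% of its gene and spike-in reads, against 0.320% to 0.779% in the other 17 libraries. Parental_TSA a lay somewhat apart for several simple keratins, so results whose call, direction or size depends on either library are also given with both left out. The epithelial markers EPCAM (313 to 696 CPM over group means) and CDH1 (234 to 571 CPM) were present, while the lung markers NKX2-1 (at most 1.02 CPM), SFTPB (at most 0.116 CPM) and SFTPC (at most 0.0251 CPM) were at or near 0. Markers of other cell types summed to 24.3 to 28.3 CPM for fibroblasts, 35.2 to 36.0 CPM for endothelium and 16.1 CPM for blood in DTP, to 19.2 to 20.6, 113 to 118 and 16 to 17.7 CPM in erlotinib_24h and to 18.6 to 26.3, 46.8 to 49.5 and 3.37 to 3.99 CPM in carboplatin_72h, against 4.69 to 4.74, 17.5 to 18.4 and 4.53 to 5.21 CPM in parental_DMSO. In the same order they summed to 29.4 to 32.2, 35.5 to 37.9 and 4.87 to 6.75 CPM in DTP_TSA, and to 13.2 to 15.2, 21.4 to 24.2 and 1.92 to 2.18 CPM in parental_TSA. Among these, 3 of 4 tested fibroblast genes, 3 of 4 endothelial and 2 of 3 blood genes were higher in DTP, their part in the keratin results was not tested, and the defining genes COL3A1, DCN and LUM, TEK and EMCN, and PTPRC, CD3E and HBB had group means of at most 0.749 CPM, and HBB was at 0 in all. The sums came mostly from other members of the lists, whose highest group means were 30.5 CPM for COL1A1, 69.7 CPM for PECAM1, 43.3 CPM for CDH5, 10.3 CPM for KDR, 3.67 CPM for VWF and 16.5 CPM for ITGAM.

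Levels are CPM, the read count of a gene scaled to its library's total after TMM adjustment, and changes are log2 fold changes ± standard error from edgeR's quasi-likelihood test over 17641 genes, called at a Benjamini-Hochberg adjusted p under 0.05. All 10 members passed the filter on low counts. Against parental_DMSO, 5 members were higher and 5 lower in DTP, where 31.0% of all tested genes were higher and 27.8% lower. In erlotinib_24h 7 were higher and 2 lower (all genes 36.6% and 32.7%), and in carboplatin_72h 3 were higher and 5 lower (30.3% and 28.6%). These comparisons, and that of parental_TSA, share the same 3 control libraries. Median changes of the members were 0.18 in DTP, 0.45 in erlotinib_24h and -0.20 in carboplatin_72h, against 0.06, 0.11 and 0.06 over all genes. Spike-in scaling, done with DTP_TSA a left out, moved those medians of all genes to 0.15, -0.25 and 0.71, and the share of calls that were higher to 63.3%, 38.9% and 89.6%, against 52.7%, 52.8% and 51.4% with gene reads. Bulk RNA cannot tell more RNA per cell from more cells that make it.

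Summed over the 10 members, keratin RNA came to 4754, 4874 and 4835 CPM in DTP, 8168, 8386 and 8381 CPM in erlotinib_24h and 3752, 3521 and 4091 CPM in carboplatin_72h, against 4824, 4621 and 4844 CPM in parental_DMSO. These sums use gene reads and were not taken with spike-in scaling. That scaling called 6 members higher and 2 lower in carboplatin_72h. The 4 most abundant there, KRT7, KRT8, KRT18 and KRT19, were at 0.42, 0.45, 0.26 and 0.56 with it. The sum in DTP overlapped that in parental_DMSO, although all 10 members passed the test, and the make-up differed. The stratified keratins among the members, KRT5, KRT6A, KRT6B, KRT16 and KRT17, gave 4.31% ± 0.0812 of the 10 members' reads in DTP, 7.69% ± 0.0783 in erlotinib_24h and 5.32% ± 0.176 in carboplatin_72h, against 12.9% ± 0.146 in parental_DMSO (SD, n = 3 each). Stratified keratins outside the 10 members are not in this share. Of those, KRT13, KRT15 and KRT4 had 847, 156 and 15.3 CPM in erlotinib_24h, against 87.8, 8.21 and 0.249 CPM in parental_DMSO. The share therefore does not stand for all stratified keratins. These 5 summed to 208 ± 3.73 CPM in DTP, 639 ± 9.82 CPM in erlotinib_24h and 201 ± 9.18 CPM in carboplatin_72h, against 616 ± 10.6 CPM in parental_DMSO. By gene reads, only their share was therefore lower in erlotinib_24h. Whether their sum was also lower there with spike-in scaling was not tested. KRT5, at 365 CPM the largest of the 5 in erlotinib_24h, was -0.79 with that scaling, against -0.43 with gene reads. In erlotinib_24h KRT7, KRT8, KRT18 and KRT19 summed to 7568 ± 117 CPM, against 4059 ± 112 CPM in parental_DMSO. Per kilobase of transcript, KRT7 was the highest member in DTP at 1011 CPM, KRT8 in erlotinib_24h at 1506 CPM, KRT8 and KRT18 in carboplatin_72h at 559.7 and 556 CPM, and KRT18 in parental_DMSO at 727 CPM. KRT17 was the lowest in parental_DMSO, at 0.687 CPM per kilobase, and KRT6B was the lowest in DTP, at 1.18 CPM per kilobase.

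**Figure D1:**
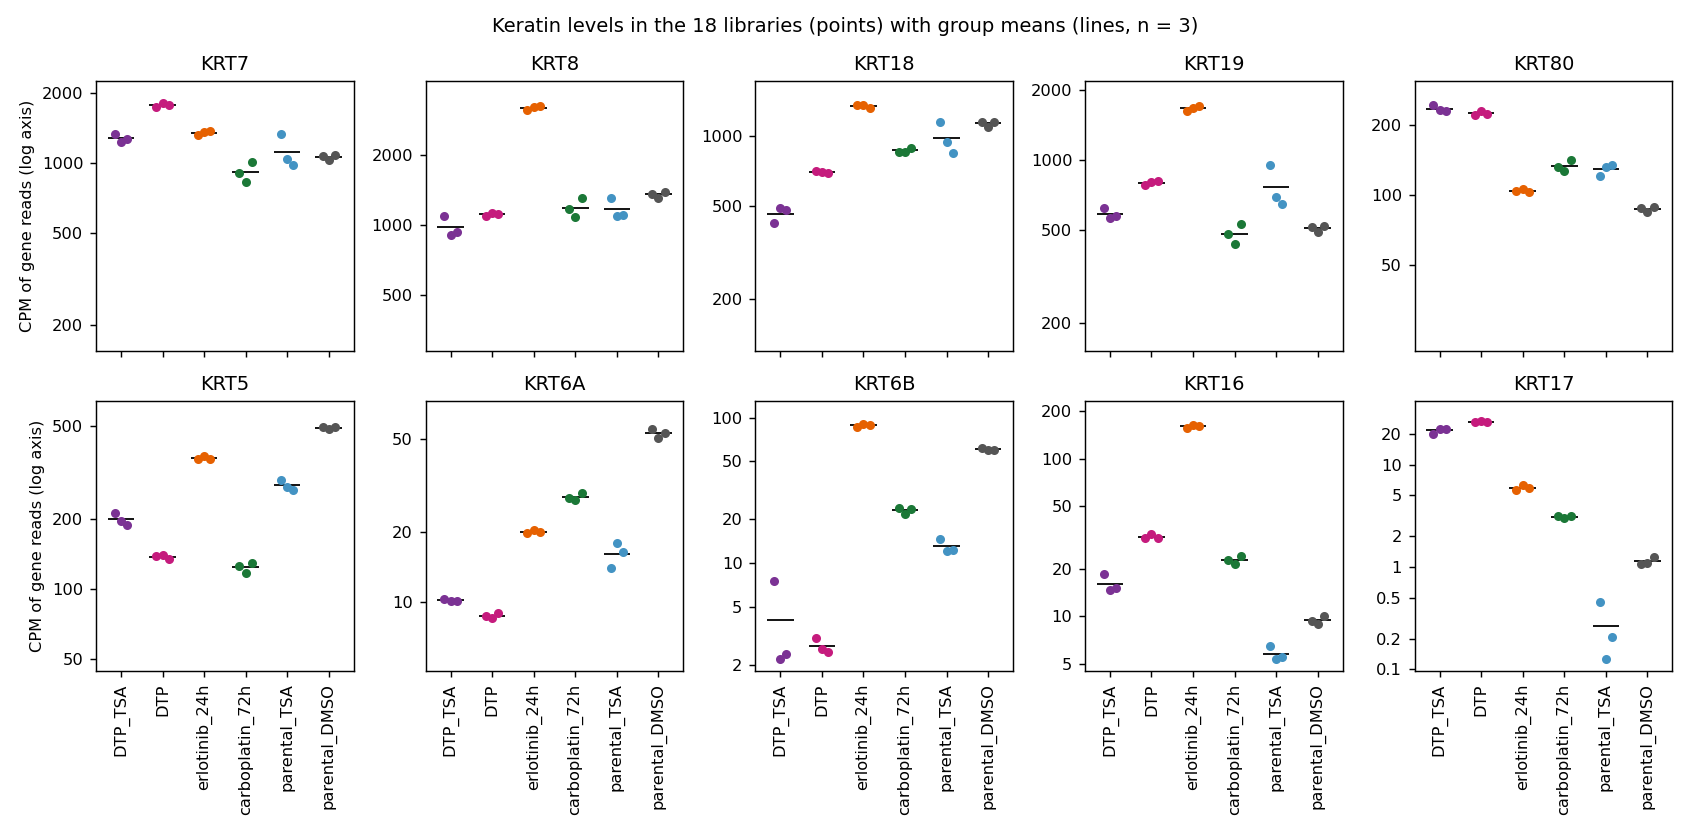
CPM of each keratin (log axis) in every library of the 6 groups, with the group mean as a line (n = 3). KRT17 spans the widest range of group means, 99.8-fold, with DTP on top, while KRT7 spans 1.95-fold.

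KRT8 and KRT18, the main pair of simple epithelia, were highest after 24 hours of erlotinib and lower in persisters than in untreated cells, though with spike-in scaling KRT18 was not above parental_DMSO after erlotinib. KRT8 had 1092, 1127 and 1117 CPM in DTP, 3119, 3233 and 3255 CPM in erlotinib_24h and 1176, 1081 and 1313 CPM in carboplatin_72h, against 1366, 1313 and 1387 CPM in parental_DMSO. The erlotinib_24h libraries stood clear of all others, and those of carboplatin_72h touched the lowest control. KRT8 rose by 1.24 ± 0.08 in erlotinib_24h (edgeR adjusted p = 6.10e-10) and fell by 0.29 ± 0.08 in DTP (adjusted p = 0.00664). With spike-in scaling the DTP value was -0.19 and no longer passed (adjusted p = 0.189). In carboplatin_72h it was -0.19 ± 0.08 (adjusted p = 0.06), which passed with both TSA a libraries left out (adjusted p = 0.00195), passed at -0.26 without carboplatin_72h c (adjusted p = 0.0173) and turned to 0.45 with spike-in scaling.

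KRT18, the type I partner, had 708, 699 and 695 CPM in DTP, 1356, 1357 and 1316 CPM in erlotinib_24h and 856, 859 and 890.2 CPM in carboplatin_72h, against 1156, 1098 and 1153 CPM in parental_DMSO. No 2 of these groups overlapped. It fell by 0.70 ± 0.08 in DTP (edgeR adjusted p = 1.94e-06) and by 0.39 ± 0.08 in carboplatin_72h (adjusted p = 8.41e-04), the carboplatin value turning to 0.26 with spike-in scaling. In erlotinib_24h it rose by 0.24 ± 0.08 (adjusted p = 0.0174), which turned to -0.12 with spike-in scaling and missed the threshold without parental_DMSO b (adjusted p = 0.0608). The pair did not move in step. The log2 ratio of KRT8 to KRT18 reads was 0.67 ± 0.04 in DTP, 1.25 ± 0.05 in erlotinib_24h and 0.45 ± 0.11 in carboplatin_72h, against 0.26 ± 0.01 in parental_DMSO (SD, n = 3 each), a ratio that no scaling of libraries alters.

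KRT7 and KRT19 complete the simple set, and both were higher in DTP and in erlotinib_24h, except KRT7 in erlotinib_24h with spike-in scaling. KRT7, a type II keratin of glandular cells used as a marker of lung adenocarcinoma, had 1744, 1799 and 1778 CPM in DTP, 1322, 1357 and 1363 CPM in erlotinib_24h and 901, 827 and 1004 CPM in carboplatin_72h, against 1069.9, 1029 and 1075 CPM in parental_DMSO. The 3 DTP libraries were the highest of the 18. KRT7 rose by 0.75 ± 0.09 in DTP (edgeR adjusted p = 1.96e-06) and by 0.35 ± 0.09 in erlotinib_24h (adjusted p = 0.00253), the erlotinib value being -0.01 with spike-in scaling. It fell by 0.22 ± 0.09 in carboplatin_72h (adjusted p = 0.0493), a call that was lost without any 1 of parental_DMSO a, b or c or carboplatin_72h a or b (adjusted p up to 0.135, values from -0.29 to -0.18 over the 6 libraries left out) and turned to 0.42 with spike-in scaling.

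KRT19, the smallest keratin and a type I partner of KRT7 and KRT8, had 782, 808 and 819 CPM in DTP, 1637, 1684 and 1707 CPM in erlotinib_24h and 483, 437 and 533 CPM in carboplatin_72h, against 519, 491 and 520.4 CPM in parental_DMSO. Carboplatin_72h overlapped the controls and the erlotinib groups lay above them. KRT19 rose by 1.72 ± 0.11 in erlotinib_24h (edgeR adjusted p = 2.62e-10) and by 0.65 ± 0.11 in DTP (adjusted p = 4.57e-05). The carboplatin_72h value of -0.07 ± 0.11 did not pass (adjusted p = 0.563), and with spike-in scaling it was 0.56.

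Of the drug groups KRT80 was highest in DTP, and it was higher in all 3 than in parental_DMSO, except in erlotinib_24h with spike-in scaling. It had 220.1, 230.4 and 222 CPM in DTP, 104, 106 and 103 CPM in erlotinib_24h and 132, 127 and 141 CPM in carboplatin_72h, against 87.9, 84.7 and 88.9 CPM in parental_DMSO. All 4 groups were apart from each other. KRT80 rose by 1.36 ± 0.05 in DTP (edgeR adjusted p = 1.52e-12), by 0.26 ± 0.05 in erlotinib_24h (adjusted p = 3.79e-04, -0.10 with spike-in scaling) and by 0.61 ± 0.05 in carboplatin_72h (adjusted p = 4.23e-08, 1.26 with spike-in scaling).

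**Figure D2:**
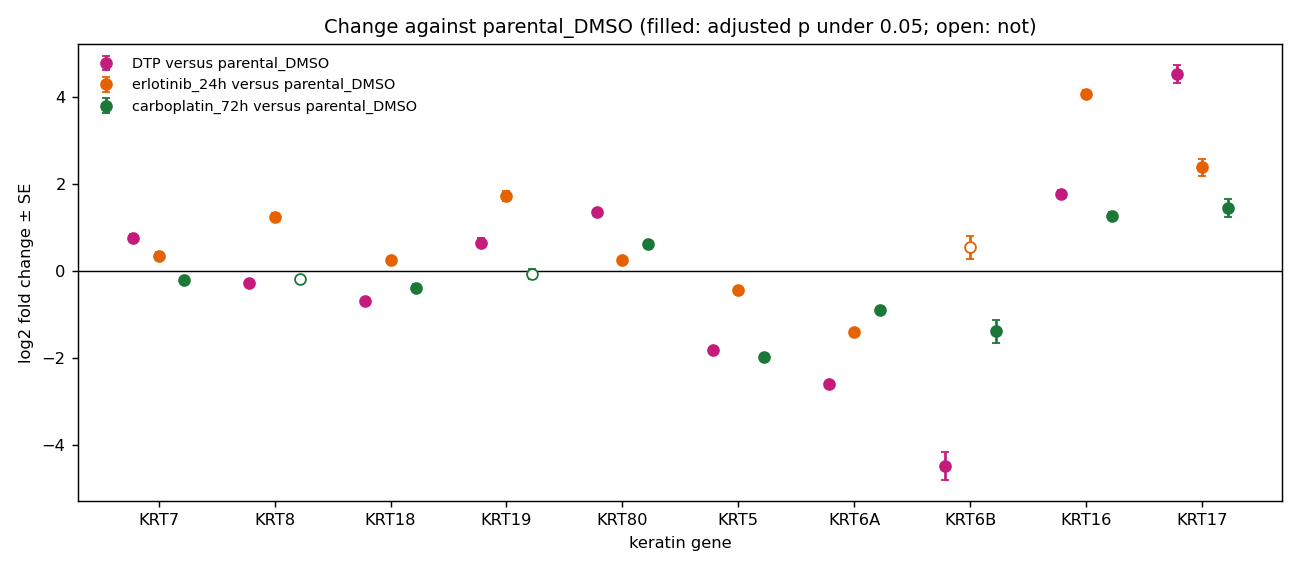
Log2 fold change ± SE of each keratin against parental_DMSO in DTP, erlotinib_24h and carboplatin_72h (n = 3 a group), filled where the adjusted p is under 0.05. KRT16 and KRT17 are above 0 in all 3 groups, KRT5 and KRT6A below 0 in all 3, and KRT6B is at -4.49 in DTP but 0.54 in erlotinib_24h.

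Among the 5 stratified keratins of the members, the type II genes fell and the type I genes rose in persisters. This split did not hold for stratified keratins outside the members. There the type II gene KRT4 rose by 2.56 ± 0.34 in DTP and the type I gene KRT13 fell by 1.03 ± 0.07. The type II gene KRT6C (-5.33 ± 0.68) and the type I gene KRT15 (0.95 ± 0.23) went the members' way. KRT5, the basal cell keratin, had 138, 140.1 and 135 CPM in DTP, 362, 370.4 and 362 CPM in erlotinib_24h and 125, 117 and 129 CPM in carboplatin_72h, against 497, 484 and 495 CPM in parental_DMSO. Every treated library lay below the lowest control. KRT5 fell by 1.99 ± 0.06 in carboplatin_72h (edgeR adjusted p = 4.46e-14), by 1.83 ± 0.05 in DTP (adjusted p = 4.12e-14) and by 0.43 ± 0.05 in erlotinib_24h (adjusted p = 1.50e-06). With spike-in scaling the values were -1.35 in carboplatin_72h, -1.74 in DTP and -0.79 in erlotinib_24h, so the largest fall was then in DTP.

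KRT6A, a keratin of wounded epidermis, had 8.71, 8.51 and 9.01 CPM in DTP, 19.8, 20.3 and 19.9 CPM in erlotinib_24h and 28.0, 27.5 and 29.5 CPM in carboplatin_72h, against 55.4, 50.8 and 53.4 CPM in parental_DMSO. It was lowest in DTP with no overlap between groups. KRT6A fell by 2.61 ± 0.08 in DTP (edgeR adjusted p = 7.39e-14), by 1.41 ± 0.08 in erlotinib_24h (adjusted p = 4.18e-11) and by 0.91 ± 0.08 in carboplatin_72h (adjusted p = 2.50e-08), the last no longer passing with spike-in scaling (-0.27, adjusted p = 0.221).

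KRT6B, its near copy, had 3.07, 2.55 and 2.45 CPM in DTP, 86.5, 90.1 and 88.6 CPM in erlotinib_24h and 24.1, 21.9 and 23.7 CPM in carboplatin_72h, against 62.2, 60.0 and 60.0 CPM in parental_DMSO. These DTP levels stand for 258, 208 and 186 estimated reads, and the erlotinib_24h libraries lay above the controls. KRT6B fell by 4.49 ± 0.32 in DTP (edgeR adjusted p = 2.50e-09) and by 1.39 ± 0.27 in carboplatin_72h (adjusted p = 3.41e-04, -0.75 with spike-in scaling). The value in erlotinib_24h, 0.54 ± 0.27, did not pass in the fit of all libraries (adjusted p = 0.081). With both TSA a libraries left out it was 0.54 ± 0.05 and passed (adjusted p = 1.62e-08), as it did when the groups compared were fitted alone (0.49 ± 0.03, adjusted p = 3.35e-10), and with spike-in scaling it was 0.18 and did not pass (adjusted p = 0.253).

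The copies moved apart. The log2 ratio of KRT6A to KRT6B was 1.50, 1.74 and 1.88 in the DTP libraries, -2.13, -2.15 and -2.16 in erlotinib_24h and 0.21, 0.33 and 0.31 in carboplatin_72h, against -0.17, -0.24 and -0.17 in parental_DMSO. KRT6A took more reads in DTP and carboplatin_72h, and KRT6B in erlotinib_24h and parental_DMSO. The remaining copy, KRT6C, stayed at or below 0.811 ± 0.0861 CPM (SD, n = 3), its mean in erlotinib_24h.

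KRT16, the type I partner of the KRT6 proteins, was the member with the largest rise after 24 hours of erlotinib. It had 31.5, 33.5 and 31.3 CPM in DTP, 156, 163 and 161 CPM in erlotinib_24h and 22.8, 21.5 and 24.3 CPM in carboplatin_72h, against 9.33, 9.0 and 10.1 CPM in parental_DMSO. All treated libraries lay above the controls. KRT16 rose by 4.07 ± 0.10 in erlotinib_24h (edgeR adjusted p = 1.04e-15), by 1.76 ± 0.09 in DTP (adjusted p = 3.41e-11) and by 1.27 ± 0.09 in carboplatin_72h (adjusted p = 2.59e-09, 1.91 with spike-in scaling). Its direction was opposite to that of KRT6A in each of these groups, so that the log2 ratio of KRT6A to KRT16 reads was -1.88 ± 0.09 in DTP, -3.00 ± 0.02 in erlotinib_24h and 0.31 ± 0.04 in carboplatin_72h, against 2.49 ± 0.09 in parental_DMSO (SD, n = 3 each).

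KRT17, a type I keratin of skin appendages and activated epidermis, rose most in persisters. It had 26.2, 26.7 and 26.0 CPM in DTP, 5.61, 6.26 and 5.88 CPM in erlotinib_24h and 3.17, 2.98 and 3.15 CPM in carboplatin_72h, against 1.06, 1.10 and 1.24 CPM in parental_DMSO. The control levels rest on 78, 83 and 90 estimated reads, the DTP levels on 2200, 2177 and 1971. KRT17 rose by 4.53 ± 0.21 in DTP, which is 23.1-fold (edgeR adjusted p = 8.28e-12), by 2.38 ± 0.20 in erlotinib_24h (adjusted p = 9.28e-09) and by 1.45 ± 0.20 in carboplatin_72h (adjusted p = 8.39e-06). With spike-in scaling the values were 4.62 in DTP, 2.02 in erlotinib_24h and 2.09 in carboplatin_72h. The log2 ratio of KRT5, a type II partner, to KRT17 reads was 2.39 ± 0.01 in DTP, 5.95 ± 0.06 in erlotinib_24h and 5.32 ± 0.03 in carboplatin_72h, against 8.76 ± 0.11 in parental_DMSO (SD, n = 3 each).

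**Figure D3:**
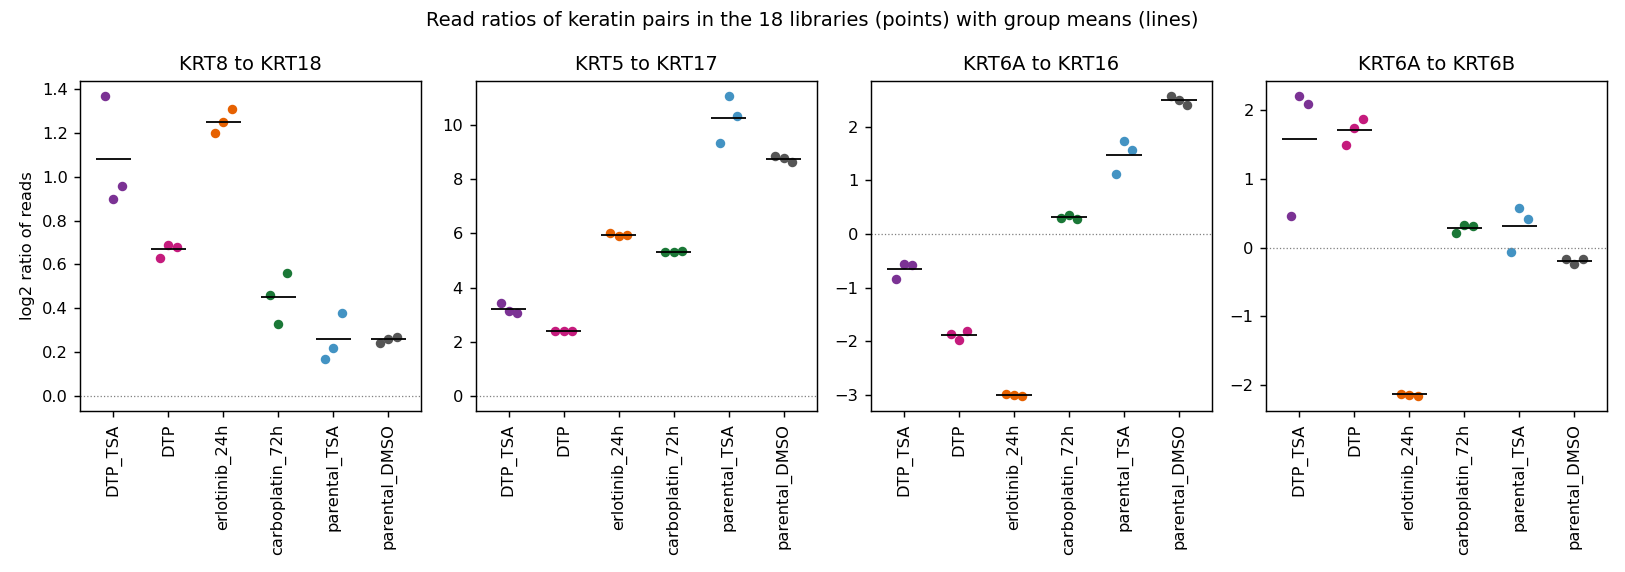
Log2 ratio of reads of KRT8 to KRT18, KRT5 to KRT17, KRT6A to KRT16 and KRT6A to KRT6B in each library, with group means as lines (n = 3). The ratio of KRT6A to KRT16 lies at -3.00 in erlotinib_24h and 2.49 in parental_DMSO, and DTP_TSA a sits away from its mates for KRT8 to KRT18 and KRT6A to KRT6B.

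Persisters also differed from the acute erlotinib response in every member. Between DTP and erlotinib_24h, 3 members were higher and 7 lower, where 30.5% of all genes were higher and 24.8% lower, and the members' median was -1.13 against 0.03 over all genes. Spike-in scaling moved the median of all genes to 0.48 and the share of calls that were higher to 80.9%, against 55.1% with gene reads, and left 3 members called higher and 7 lower. The members higher in DTP were KRT17 (2.15 ± 0.18, edgeR adjusted p = 2.12e-08), KRT80 (1.10 ± 0.05, adjusted p = 2.54e-11) and KRT7 (0.40 ± 0.09, adjusted p = 0.00128). KRT6B was lower by the most, at -5.04 ± 0.33 (adjusted p = 8.47e-10), a 0.0305-fold level. KRT16 followed at -2.32 ± 0.09, KRT8 at -1.53 ± 0.08, KRT5 at -1.40 ± 0.05, KRT6A at -1.19 ± 0.08, KRT19 at -1.06 ± 0.11 and KRT18 at -0.94 ± 0.09 (adjusted p at most 2.19e-07). With spike-in scaling KRT7 was 0.85, KRT6A -0.74, KRT19 -0.61 and KRT18 -0.49, all still past the threshold.

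TSA was given to persisters and to parental cells, which asks whether a histone deacetylase inhibitor has the same effect on both. In DTP_TSA against DTP, 2 members were higher and 4 lower, where 25.6% of all genes were higher and 30.7% lower, and the members' median was -0.23 against -0.08. In parental_TSA against parental_DMSO, 2 were higher and 7 lower, where 30.8% of all genes were higher and 27.4% lower, and the median was -0.47 against 0.06. With both TSA a libraries left out these counts of members were 2 higher and 7 lower in DTP_TSA, and 2 and 7 in parental_TSA. The shares of all genes given here are from the fit of all libraries. Across alternative settings, apart from leaving out each library in turn, 6893 to 12508 genes were called in DTP_TSA, against 9915 in that fit. In parental_TSA 8429 to 12451 were called, against 10267. Whether the members' added calls in DTP_TSA went beyond a change over all genes was not tested. Scaling to spike-ins put 62.6% of the calls of all genes higher in DTP_TSA, against 45.5% with gene reads. The difference of both TSA effects was itself past the threshold for 8 members, higher for 4 and lower for 4, where it was higher for 15.3% and lower for 23.0% of all genes.

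**Figure D4:**
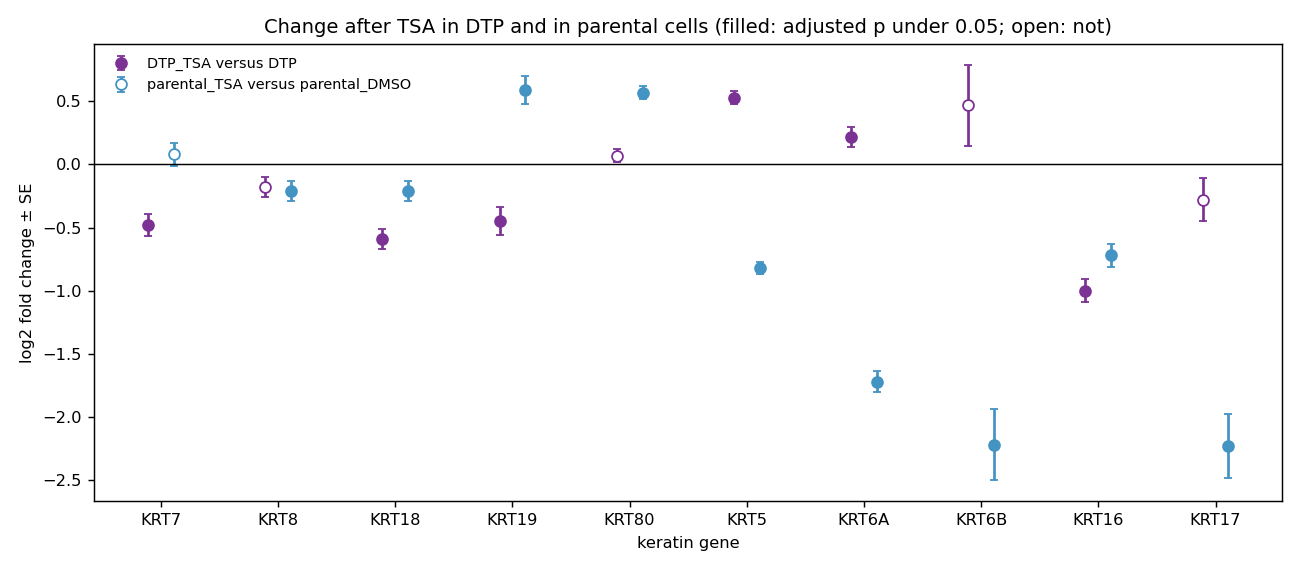
Log2 fold change ± SE after TSA in DTP (DTP_TSA against DTP) and in parental cells (parental_TSA against parental_DMSO) for each keratin (n = 3 a group), filled where the adjusted p is under 0.05. KRT5 lies at 0.53 in DTP and -0.82 in parental cells, and KRT6A at 0.22 and -1.72.

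KRT5 and KRT6A moved in opposite directions in the 2 settings. KRT5 had 212, 195 and 189 CPM in DTP_TSA, against 138, 140.1 and 135 CPM in DTP, and 294, 275 and 266 CPM in parental_TSA, against 497, 484 and 495 CPM in parental_DMSO. It rose by 0.53 ± 0.05 in DTP (edgeR adjusted p = 3.04e-07) and fell by 0.82 ± 0.05 in parental cells (adjusted p = 1.40e-09), a difference of 1.35 ± 0.08 (adjusted p = 1.83e-09). KRT6A had 10.3, 10.1 and 10.1 CPM in DTP_TSA, against 8.71, 8.51 and 9.01 CPM in DTP, and 14, 18 and 16.4 CPM in parental_TSA, against 55.4, 50.8 and 53.4 CPM in parental_DMSO. It fell by 1.72 ± 0.08 in parental cells (adjusted p = 1.96e-11). Its rise in DTP was 0.22 ± 0.08 (adjusted p = 0.0283), a call lost at 0.21 without DTP a, 0.20 without DTP b and 0.22 without DTP_TSA b (adjusted p up to 0.0867) and at 0.35 with spike-in scaling (adjusted p = 0.209), and the difference was 1.94 ± 0.11 (adjusted p = 2.11e-09).

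KRT6B in DTP_TSA was decided by a single library. It had 7.54, 2.19 and 2.37 CPM there, against 3.07, 2.55 and 2.45 CPM in DTP, and 14.7, 12.1 and 12.2 CPM in parental_TSA, against 62.2, 60.0 and 60.0 CPM in parental_DMSO. The high value is that of DTP_TSA a. The change in DTP was 0.47 ± 0.32 (edgeR adjusted p = 0.216), -0.24 ± 0.11 without DTP_TSA a (adjusted p = 0.0659), -0.24 ± 0.09 with both TSA a libraries left out (adjusted p = 0.0241) and 0.79 ± 0.30 without DTP_TSA b (adjusted p = 0.0347). In parental cells KRT6B fell by 2.22 ± 0.28 (adjusted p = 3.53e-06), and the difference of 2.70 ± 0.42 (adjusted p = 9.89e-05) was 2.07 ± 0.11 without them (adjusted p = 1.23e-10).

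Of the type I stratified keratins, KRT16 fell in both settings. It had 18.5, 14.8 and 15.1 CPM in DTP_TSA, against 31.5, 33.5 and 31.3 CPM in DTP, and 6.47, 5.38 and 5.52 CPM in parental_TSA, against 9.33, 9.0 and 10.1 CPM in parental_DMSO. It fell by 1.00 ± 0.09 in DTP (edgeR adjusted p = 4.93e-08) and by 0.72 ± 0.09 in parental cells (adjusted p = 3.54e-06), and the difference of -0.28 ± 0.13 did not pass (adjusted p = 0.0874), though it did without DTP_TSA a (adjusted p = 0.00826) and at -0.30 without both TSA a libraries (adjusted p = 0.00524). KRT17 had 19.9, 22.4 and 22.5 CPM in DTP_TSA, against 26.2, 26.7 and 26.0 CPM in DTP, and 0.458, 0.127 and 0.205 CPM in parental_TSA, against 1.06, 1.10 and 1.24 CPM in parental_DMSO. The parental_TSA values stand for 30, 14 and 27 estimated reads. KRT17 fell by 2.23 ± 0.25 in parental cells (adjusted p = 8.56e-07, -2.73 without both TSA a libraries), where the value in DTP, -0.28 ± 0.17, did not pass (adjusted p = 0.171) but did without both TSA a libraries (-0.23 ± 0.07, adjusted p = 0.00477). The difference was 1.95 ± 0.30 (adjusted p = 9.89e-05), and 2.50 ± 0.17 without both TSA a libraries (adjusted p = 3.43e-09).

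Of the parental_TSA libraries, a had the highest level of all 4 simple keratins. KRT7 had 1329, 1233 and 1265 CPM in DTP_TSA, against 1744, 1799 and 1778 CPM in DTP, and 1331, 1036 and 982 CPM in parental_TSA, against 1069.9, 1029 and 1075 CPM in parental_DMSO. It fell by 0.48 ± 0.09 in DTP (edgeR adjusted p = 2.61e-04), and the parental value of 0.08 ± 0.09 did not pass (adjusted p = 0.486) and was -0.07 without parental_TSA a. KRT19 had 624, 567 and 575 CPM in DTP_TSA, against 782, 808 and 819 CPM in DTP, and 952, 699 and 653 CPM in parental_TSA, against 519, 491 and 520.4 CPM in parental_DMSO. It fell by 0.45 ± 0.11 in DTP (adjusted p = 0.00167) and rose by 0.59 ± 0.11 in parental cells (adjusted p = 1.44e-04, 0.41 without both TSA a libraries), a difference of -1.04 ± 0.15 (adjusted p = 4.79e-05).

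KRT18 had 424, 490.2 and 479.8 CPM in DTP_TSA, against 708, 699 and 695 CPM in DTP, and 1155, 942 and 846 CPM in parental_TSA, against 1156, 1098 and 1153 CPM in parental_DMSO. It fell by 0.59 ± 0.08 in DTP (edgeR adjusted p = 1.43e-05, -0.39 with spike-in scaling). In parental cells it fell by 0.21 ± 0.08 (adjusted p = 0.0414), with groups that overlapped through parental_TSA a, and that call was lost without any 1 of the other 5 libraries (adjusted p up to 0.201, values from -0.35 to -0.11 over the 6 left out) and with spike-in scaling (adjusted p = 0.0956). With both TSA a libraries left out the value was -0.34 ± 0.04 and passed (adjusted p = 5.61e-07). KRT8 had 1097, 912 and 935 CPM in DTP_TSA, against 1092, 1127 and 1117 CPM in DTP, and 1304, 1098 and 1104 CPM in parental_TSA, against 1366, 1313 and 1387 CPM in parental_DMSO. Its value in DTP was -0.18 ± 0.08 (adjusted p = 0.072), and -0.27 ± 0.05 without both TSA a libraries (adjusted p = 2.67e-04). In parental cells KRT8 fell by 0.21 ± 0.08 (adjusted p = 0.0346), lost without parental_DMSO a or c or parental_TSA b or c (adjusted p up to 0.132) and with spike-in scaling (adjusted p = 0.121), while with both TSA a libraries left out it was -0.30 ± 0.05 and passed (adjusted p = 9.03e-05).

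KRT80 had 244, 232 and 229 CPM in DTP_TSA, against 220.1, 230.4 and 222 CPM in DTP, and 121, 132 and 135 CPM in parental_TSA, against 87.9, 84.7 and 88.9 CPM in parental_DMSO. DTP_TSA overlapped DTP, and parental_TSA lay above its controls. The rise in parental cells was 0.57 ± 0.05 (edgeR adjusted p = 1.27e-07) and the value in DTP 0.07 ± 0.05 (adjusted p = 0.273). The DTP value passed at 0.13 with DESeq2 size factors (adjusted p = 0.0391) and at 0.13 in the DESeq2 test (adjusted p = 0.0151). It also passed at 0.18 with a filter of 1 CPM in 3 libraries (edgeR adjusted p = 0.00442) and at 0.13 with only the groups compared in the fit (adjusted p = 0.0459). It did not pass at 0.04 without both TSA a libraries (adjusted p = 0.362) or at 0.19 with spike-in scaling (adjusted p = 0.474).

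The rest of the family was mostly too low to test. Of the 45 other keratins 21 were tested, and 8 were higher and 6 lower in DTP against parental_DMSO, 8 higher and 6 lower in erlotinib_24h, and 8 higher and 3 lower in carboplatin_72h (15 and 1 with spike-in scaling). Over all genes 31.0% were higher and 27.8% lower in DTP, 36.6% and 32.7% in erlotinib_24h, and 30.3% and 28.6% in carboplatin_72h. Spike-in scaling called 10463 of all genes higher and 1212 lower in carboplatin_72h. KRT13, a type I keratin of wet stratified epithelia, had 847 ± 3.53 CPM in erlotinib_24h, against 87.8 ± 1.85 CPM in parental_DMSO (SD, n = 3 each), a rise of 3.27 ± 0.07 (edgeR adjusted p = 3.02e-16). Its type II partner KRT4 had 15.3 ± 0.872 CPM, against 0.249 ± 0.0331 CPM (rise of 5.94 ± 0.35, adjusted p = 1.05e-10), and the basal type I keratin KRT15 156 ± 1.74 CPM, against 8.21 ± 0.296 CPM (rise of 4.25 ± 0.25, adjusted p = 1.12e-10). In DTP, KRT13 fell by 1.03 ± 0.07 (adjusted p = 6.69e-10), while the hair keratins KRT34 and KRT81, the second uncertain for its near copy KRT86, rose by 2.25 ± 0.21 and 2.06 ± 0.19 (adjusted p = 7.60e-08 and 5.55e-08). After TSA in parental cells 1 of the 21 was higher and 11 lower, with a median of -1.18, where 30.8% of all genes were higher and 27.4% lower with a median of 0.06. Of these 11, KRT2, KRT3, KRT4, KRT6C, KRT9, KRT14, KRT75 and KRT79 were near the floor, with at most 1.05 CPM in parental_DMSO. KRT23, KRT34 and KRT81 had 11.8, 5.18 and 6.46 CPM there.

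**Figure D5:**
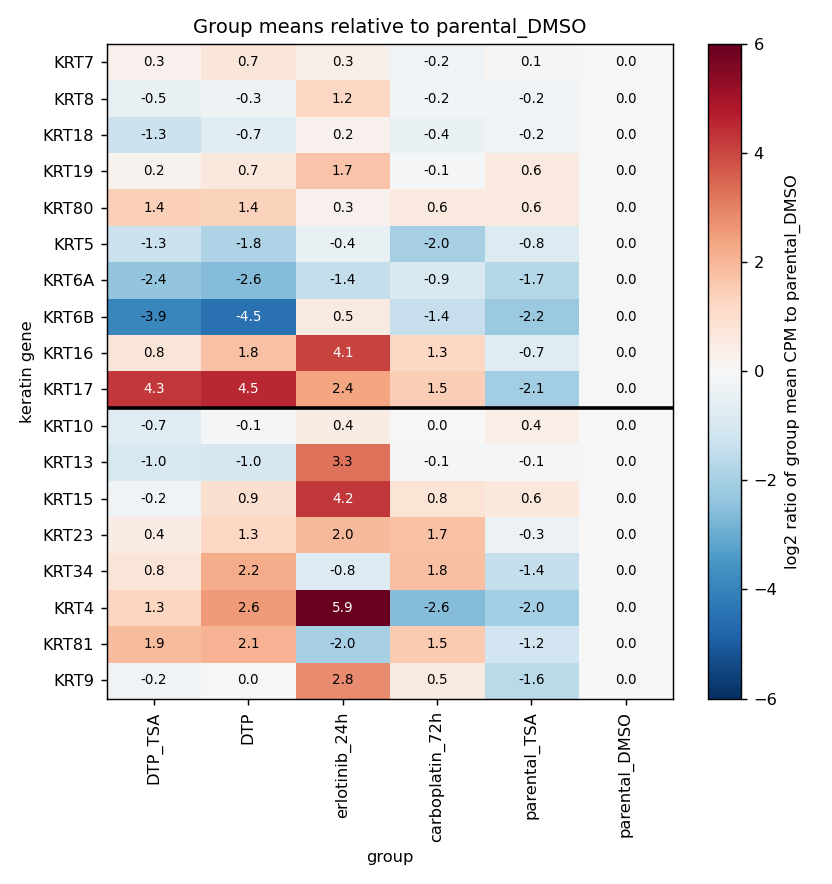
Log2 ratio of each group's mean CPM to that of parental_DMSO for the 10 keratins (above the line) and for the 8 other tested keratins with a group mean of at least 5 CPM (below it). KRT4, KRT13 and KRT15 are highest in erlotinib_24h, and KRT34 and KRT81 in DTP.

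Partner structures of keratin filaments were counted by lists. Of 16 tested genes of desmosomes and keratin linkers, 5 were higher and 2 lower in DTP against parental_DMSO (6 and 4 without both TSA a libraries, 3 and 1 with spike-in scaling), and 8 higher and 2 lower in erlotinib_24h (5 and 5 with spike-in scaling). The shares over all genes, from the fit of all libraries with gene reads, were 31.0% higher and 27.8% lower in DTP, 36.6% and 32.7% in erlotinib_24h and 30.3% and 28.6% in carboplatin_72h, and the same shares stand behind the lists that follow. Plakoglobin (JUP), which ties desmosomes to keratin, had 257 CPM in DTP and 401 CPM in erlotinib_24h, against 84.8 CPM in parental_DMSO, and rose by 1.60 ± 0.09 in DTP (edgeR adjusted p = 1.00e-10). The keratin-binding epiplakin gene EPPK1 rose by 3.34 ± 0.24 in DTP (adjusted p = 3.71e-09) and by 3.51 ± 0.25 in erlotinib_24h (adjusted p = 1.03e-09). Of 8 genes of hemidesmosomes and basal adhesion, 3 were higher and 2 lower in DTP, and the integrin gene ITGA6, which anchors basal cells, had 228 CPM in DTP and 65.5 CPM in erlotinib_24h, against 1457 CPM in parental_DMSO (changes of -2.68 ± 0.11 and -4.48 ± 0.12, adjusted p = 2.13e-12 and 4.19e-15).

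Among 11 other tested intermediate filament genes, 4 were higher and 3 lower in DTP. Vimentin (VIM), the filament of mesenchymal cells, had 51.4 CPM in DTP, against 28.6 CPM in parental_DMSO, a rise of 0.84 ± 0.09 (edgeR adjusted p = 3.64e-07). Genes of the cornified envelope, the cross-linked layer of differentiated epidermis, numbered 17 tested, of which 3 were higher and 8 lower in DTP (6 and 8 without both TSA a libraries), 8 higher and 5 lower in erlotinib_24h and 16 higher and 1 lower in carboplatin_72h (16 and 0 with spike-in scaling). Their median was 2.09 in carboplatin_72h, against 0.06 over all genes. The calgranulin gene S100A9 had 478 CPM in carboplatin_72h, against 111 CPM in parental_DMSO, a rise of 2.11 ± 0.16 (adjusted p = 5.82e-09), and fell by 3.30 ± 0.17 in DTP (adjusted p = 3.71e-11).

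Of 17 transcription factor genes known to act on keratin genes, 6 were higher and 6 lower in DTP, shares near those of all genes (31.0% and 27.8%), 12 higher and 4 lower in erlotinib_24h (8 and 5 with spike-in scaling) and 11 higher and 3 lower in carboplatin_72h (14 and 1). ELF3, an epithelial factor, had 105 CPM in DTP and 701 CPM in erlotinib_24h, against 23.6 CPM in parental_DMSO (rises of 2.16 ± 0.06 and 4.89 ± 0.06, edgeR adjusted p = 9.97e-15 and 1.22e-18). The AP-1 member FOSL1 had 79.9 CPM in DTP and 15.9 CPM in erlotinib_24h, against 368 CPM in parental_DMSO (changes of -2.20 ± 0.15 and -4.54 ± 0.16, adjusted p = 1.19e-09 and 1.74e-13). After TSA in DTP, FOSL1 had 8.52 CPM in DTP_TSA, against 79.9 CPM in DTP, and GRHL1, an epithelial grainyhead factor, 102 CPM, against 20.4 CPM (changes of -3.26 ± 0.16 and 2.32 ± 0.08, adjusted p = 5.29e-11 and 1.46e-12).

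Across the 18 libraries, which share 6 group conditions, Pearson correlations of log2 CPM between members are given as a description. KRT80 ran opposite to KRT6B (r = -0.93), KRT18 (r = -0.90) and KRT6A (r = -0.88). KRT6B and KRT18 (r = 0.85), KRT8 and KRT19 (r = 0.83) and KRT6A and KRT6B (r = 0.81) were the most alike pairs, where the partners KRT8 and KRT18 had r = 0.73 and KRT5 and KRT17 r = -0.48. Outside the family, among 10994 genes with a mean of at least 5 CPM, KRT80 was most like OASL (r = 0.991), HERC5 (r = 0.988) and LAMP3 (r = 0.973). KRT17 was most like OLR1 (r = 0.984), IL32 (r = 0.981) and ACTG2 (r = 0.972), and KRT16 most like PUS10 (r = 0.986), MUC16 (r = 0.982) and GATA2-AS1 (r = 0.976). The closest gene was NT5E for KRT6A (r = 0.973), STEAP3 for KRT5 (r = 0.948), LAMA4 for KRT6B (r = 0.928), FASTK for KRT7 (r = 0.961), PAN2 for KRT8 (r = 0.973), MUTYH for KRT18 (r = 0.979) and ECH1 for KRT19 (r = 0.983).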

How the data were processed

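Per the labels, polyA RNA was sequenced after DNase treatment and after ERCC spike-ins had been added in proportion to cells. The deposited tables hold expected counts per gene and per ERCC transcript, not scaled between libraries, and Salmon (version not given) is the tool named per the submitters' processing notes. Its settings, the genome build and the annotation are not given in the sources read here. Of the columns, 3 in each table match no sample and were not used.

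Symbols were found for 27814 of 30727 identifiers, and those without took 0.247% of gene reads. Expected counts were rounded, genes were kept by edgeR's expression filter (17641 genes), and library sizes were scaled by TMM. In R 4.3.3, edgeR 4.0.16 with limma 3.58.1 was used, and its quasi-likelihood model was fitted once to the 18 libraries by group, which left 12 residual degrees of freedom and gave a coefficient of biological variation of 0.136. Each of its 7 contrasts had Benjamini-Hochberg adjustment over all tested genes and a threshold of 0.05.

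The 10 members are always named. Of each list, up to 4 genes per comparison with the smallest adjusted p under 0.05 could be named, and for each member the 3 most alike genes outside the family. Members, lists and alternatives were chosen with earlier results of these data known. Lengths and sequences come from the principal transcript of each gene in GENCODE v29. Alternatives tried were the DESeq2 1.42.0 test, DESeq2 size factors in edgeR, 2 other filters, a replicate block by letter, fits of only the groups compared, spike-in reads as library sizes, both TSA a libraries left out, and each library left out in turn. Plots were made in Python 3.11.15 (matplotlib 3.10.9).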

Additional observations from a re-analysis of the deposited data

Results flagged for a closer look

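The effect of TSA differed between DTP and parental cells for 8 of the 10 keratins, by a test of the difference itself (edgeR, adjusted p under 0.05), given as the log2 change in DTP minus that in parental cells. Over all tested genes the difference was higher for 15.3% and lower for 23.0%. The difference was 2.70 for KRT6B, 1.95 for KRT17, 1.94 for KRT6A and 1.35 for KRT5. It was -1.04 for KRT19, -0.55 for KRT7, -0.50 for KRT80 and -0.38 for KRT18. The first 4 genes fell in parental cells, which by itself raises the difference. KRT8, KRT16 and KRT18 also fell there, with differences of 0.03, -0.28 and -0.38. With spike-in scaling, without DTP_TSA a, KRT7 (-0.41, adjusted p = 0.0933), KRT18 (-0.15, adjusted p = 0.62) and KRT80 (-0.40, adjusted p = 0.316) no longer passed. With both TSA a libraries left out, KRT18 was -0.19 (adjusted p = 0.00985), and its call was also lost with a filter of 1 CPM in 3 libraries (-0.32, adjusted p = 0.052) and with only the groups compared in the fit (-0.33, adjusted p = 0.117).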

How the results depend on the processing

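Over the 7 comparisons, the alternatives other than leaving out 1 library gave 515 of the members' values the same direction and side of the threshold, 14 newly passed, 21 no longer passed and 10 changed direction; with 1 library left out these numbers were 453, 4, 18 and 5. The 10 changes of direction came from 2 settings. With spike-in scaling, without DTP_TSA a, KRT7 was -0.01, KRT18 -0.12 and KRT80 -0.10 in erlotinib_24h, KRT7 was 0.42, KRT8 0.45, KRT18 0.26 and KRT19 0.56 in carboplatin_72h, and KRT6B was -0.10 in DTP_TSA against DTP. For the difference of TSA effects it left 5 members and 2734 genes called, against 8 and 6750; it uses fewer libraries and another scaling, and the cause was not tested. With both TSA a libraries left out, KRT7 was -0.07 in parental_TSA and KRT6B -0.24 in DTP_TSA. With 1 library left out in turn, KRT6B in DTP_TSA ran from -0.24 to 0.79, KRT7 in parental_TSA from -0.07 to 0.16, and the TSA difference of KRT8 from -0.05 to 0.12.

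Same-letter libraries did not deviate together (correlations of deviations from -0.0496 to 0.0883), so the letters were not taken as pairs. With the replicate block, 8 instead of 9 members were called in parental_TSA, KRT18 missing the threshold (-0.21, adjusted p = 0.051), and the other counts of members were equal. KRT17 in parental_TSA rests on 30, 14 and 27 estimated reads, in libraries of 68775700 to 128293531 gene reads.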
